A study of Mus musculus with 10 samples.

Results

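*Marcksl1*, *Nenf*, *Pkd2*, *Fam69a*, *Asl*, *Rab8b* and *Slc1a3* are 7 protein-coding genes of the 45232 entries in a mouse RNA-seq matrix, of which 16866 were tested here. They were chosen by their own values: in an earlier analysis of these libraries each was lower in *Lin37* knockout (KO) than in rescue cells in all 4 pairs of the same clone and replicate number, and all but *Marcksl1* are absent from the study's list of down-regulated genes. Their difference between KO and rescue cells is therefore given as a description, without a test. The study made its list of down-regulated genes with edgeR, and the fit used here is limma on RPKM, so absence from that list compares unlike methods. Many more genes were lower in all 4 pairs, and what sets the 7 apart from them is a second limit: in the limma fit used here, 14 entries, 0.0830% of the genes tested, had a lower level in KO cells with an adjusted *p* under 0.05, and the protein-coding genes among them were the 7 and *Lin37* itself. This describes the choice, and nothing is read from it about the 7 genes. The other 6 entries were the pseudogenes *Gm8802*, *Gm13444* and *Gm13339* and the small RNAs *Gm25541*, *Mir3057* and *Snord100*. With the replicate block, a fit that pairs KO and rescue replicates of the same clone and number, 27 entries were lower.

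The cells were NIH3T3, an immortalized mouse fibroblast line, arrested in G0 by 60 h in medium with 0% FCS after growth in 10% FCS. All libraries came from cells with a mutated *Lin37* gene, from 1 single-cell clone with InDels in exon 4 (clone 411-27) and 1 with InDels in exon 6 (clone 632-2), and no library of unmutated cells was analysed here. Both groups carried an episome with a doxycycline-inducible insert, luciferase in KO and wild-type Lin37 in rescue cells, so rescue is re-expression in a mutated clone, and the study describes Lin37 protein from this episome already before induction. For that reason the study compared induced cell lines with each other, and it describes sorting of induced cells. Its sequencing methods do not state the doxycycline treatment of the sequenced cells. Ribosomal RNA was depleted, and 10 libraries were sequenced: 2 KO and 2 rescue replicates of the exon 4 clone, and 3 KO and 3 rescue libraries of the exon 6 clone, in which library 3 is a technical replicate of replicate 2. The labels call the replicates biological without saying what was grown separately, so *p*-values measure the spread between these cultures of 2 clones.

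Lin37 is a subunit of the MuvB core, which in resting cells joins the pocket protein p130 and E2F4 to form the DREAM complex. DREAM sits on promoters with E2F sites or cell cycle genes homology regions (CHRs) and holds cell cycle genes down until the cell re-enters the cycle. Transcripts that are lower without Lin37 thus lie on the opposite side from the repressed targets for which the complex is known, and none of the 7 genes is a textbook cell cycle gene.

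The deposited values are RPKM, reads per kilobase of gene and scaled by the reads of the library, and hold no counts, so the depth behind a single value is unknown. A median-of-ratios factor was taken out of each library, from 0.601 to 2.70 in KO and from 0.324 to 1.73 in rescue libraries, and the 2 libraries of exon 6 replicate 2 were averaged, which left 4 KO and 4 rescue replicates. The level of *Lin37* was 0.315 ± 0.0681 RPKM in KO cells and 3.58 ± 1.46 RPKM (SD, n = 4 each) in rescue cells, and lower in KO in 4 of 4 pairs. The rescue episome carries the *Lin37* coding region, so the rescue level includes its transcripts and does not measure the gene of the clone alone. The 9 fibroblast markers examined, such as the collagen gene *Col1a1*, all reached a mean level of 1 RPKM, 0 of 9 were called between KO and rescue cells (limma, also 0 at an unadjusted *p* under 0.05), and their sum was 489 to 767 RPKM in KO and 537 to 831 RPKM in rescue replicates. Of 13 markers of leukocytes, epithelium, endothelium, muscle, fat and neural cells, 0 reached a mean level of 1 RPKM; their sum was 1.15 to 1.81 RPKM in KO and 1.07 to 1.54 RPKM in rescue replicates, the macrophage gene *Cd68* was the highest with 1.06 and 0.774 RPKM, and the muscle gene *Myod1* was at 0 in 8 of 10 libraries. Of 8 proliferation markers, 6 were higher in KO cells (limma; 1.61% of all genes tested were called higher), and their sum was 13.9 to 16.4 RPKM in KO and 3.55 to 4.71 RPKM in rescue replicates. These genes therefore moved with the groups, opposite in direction to the 7 genes described here, and their part in the differences of the 7 genes was not tested.

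Promoter sequence was found for 4 of the 7 genes, *Marcksl1*, *Pkd2*, *Rab8b* and *Slc1a3*, in RefSeq windows of GRCm38.p6, and is shown because DREAM acts through the motifs searched for in them. The 250 bases before the start site were searched on both strands for CHR letters, which were TTTGAA or one of its variants, CTTGAA or otherwise TTTAAA, and for E2F letters, which were TTNNCGN with C or G at each N. Capitals mark a match. The whole window of *Marcksl1* (chr4:129513331-129513580, plus strand) is printed, and for *Pkd2* (chr5:104459207-104459266, plus strand) and *Slc1a3* (chr15:8710983-8711042, minus strand) the 60 bases that hold the match.
Marcksl1: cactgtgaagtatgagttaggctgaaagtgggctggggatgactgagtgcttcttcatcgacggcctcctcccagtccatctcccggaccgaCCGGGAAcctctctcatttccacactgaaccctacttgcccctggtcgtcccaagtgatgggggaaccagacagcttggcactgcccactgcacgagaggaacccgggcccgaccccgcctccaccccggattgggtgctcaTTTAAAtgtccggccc
Pkd2: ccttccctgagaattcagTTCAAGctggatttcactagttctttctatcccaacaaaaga
Slc1a3: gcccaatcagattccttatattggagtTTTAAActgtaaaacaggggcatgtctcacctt

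*Marcksl1* held the CHR letters TTTAAA 16 bases before its start and, on the minus strand, the E2F letters TTCCCGG 158 bases before it. *Pkd2* held CTTGAA on the minus strand 232 bases before the start, and *Slc1a3* held TTTAAA 208 bases before it. The window of *Rab8b* held none of the letters searched. Over 32851 RefSeq windows of the same length, 33% held CHR letters, 14.7% held E2F letters and 3% held both. The GC content was 60.4% in *Marcksl1*, 52.8% in *Pkd2*, 64.4% in *Rab8b* and 44.8% in *Slc1a3*, against a median of 52.4%. A match to these letters describes the sequence and does not show that the complex binds there.

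*Marcksl1* and *Nenf* were the most abundant of the 7 per length. *Marcksl1*, which encodes a MARCKS-like protein of the plasma membrane that binds actin, spans 129513581 to 129515985 of chromosome 4 in GRCm38 on the plus strand. Its rescaled level was 1.97 and 2.77 RPKM in the exon 4 KO replicates and 4.90 and 4.72 RPKM in the exon 4 rescue replicates. The exon 6 values were 5.11, 5.06 and 3.96 RPKM in KO libraries and 10.2, 10.5 and 10.2 RPKM in rescue libraries. KO and rescue libraries did not overlap within either clone, but over both clones they did, because the KO libraries of the exon 6 clone lay near the rescue level of the exon 4 clone. The replicates averaged 3.59 ± 1.46 RPKM (SD, n = 4 here and for the other genes) in KO cells and 7.53 ± 3.15 RPKM in rescue cells, so the KO mean was 47.7% of the rescue mean. This was the largest difference of the 7, with a log2 of -0.96 (log2 of RPKM + 0.5, averaged within clones) and -1.13, -0.67, -0.93 and -1.11 in the 4 pairs.

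*Nenf* encodes neudesin, a secreted protein with a cytochrome b5-like heme-binding domain, and lies on chromosome 1 from 191306789 to 191318194 on the minus strand. It was at 5.25 and 5.45 RPKM in exon 4 KO and at 7.88 and 7.37 RPKM in exon 4 rescue replicates. The exon 6 clone held more of it, with 10.9, 10.0 and 9.40 RPKM in KO and 14.2, 14.8 and 12.4 RPKM in rescue libraries. Every KO library of a clone was below every rescue library of that clone, while all exon 6 KO libraries were above both exon 4 rescue libraries. The KO mean of 7.83 ± 2.91 RPKM was 72.8% of the rescue mean of 10.8 ± 3.63 RPKM, the smallest relative drop of the 7. The log2 difference was -0.44, and between -0.54 and -0.36 in the 4 pairs.

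*Pkd2* encodes polycystin-2, a cation channel of the endoplasmic reticulum and the primary cilium that is mutated in polycystic kidney disease. The gene is on chromosome 5 from 104459450 to 104505819 on the plus strand. Its level was 2.01 and 2.62 RPKM in exon 4 KO and 3.45 and 3.84 RPKM in exon 4 rescue replicates. For the exon 6 clone the values were 1.48, 1.65 and 1.45 RPKM in KO and 2.51, 3.27 and 1.57 RPKM in rescue libraries. *Pkd2* was thus higher in the exon 4 clone, opposite to *Marcksl1* and *Nenf*, and was the only one of the 7 whose libraries overlapped within a clone: the lowest exon 6 rescue library, the technical replicate, lay under the highest exon 6 KO library. The KO mean of 1.92 ± 0.53 RPKM was 62.7% of the rescue mean of 3.06 ± 0.70 RPKM, with a log2 difference of -0.56 and pairs between -0.65 and -0.48.

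*Fam69a*, a gene for a protein of the endoplasmic reticulum with a kinase-like domain, lies on chromosome 5 from 107908053 to 107987085 on the minus strand. Its exon 4 values were 2.11 and 1.91 RPKM in KO and 3.10 and 2.73 RPKM in rescue replicates. Its exon 6 values were 2.52, 2.44 and 1.98 RPKM in KO and 3.50, 4.46 and 2.97 RPKM in rescue libraries. All KO replicates of both clones were below all rescue replicates, with a mean of 2.19 ± 0.25 RPKM in KO, 67.2% of the 3.26 ± 0.44 RPKM in rescue cells. The log2 difference was -0.48, with pairs between -0.64 and -0.40. By the GENCODE M21 annotation, 953 bases of its exons overlap *Rpl5*, a ribosomal protein gene on the opposite strand, and 31.9% of its 31-base stretches are shared with *Rpl5* when strand is ignored. The strand setting of the counting is not given in the sources used here, so reads of the 2 genes in the overlapping part cannot be told apart. *Rpl5* had 2.37 ± 0.41 RPKM in KO cells and 2.74 ± 0.54 RPKM in rescue cells and was lower in KO in 3 of 4 pairs (log2 -0.17, adjusted *p* = 0.757, limma).

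*Asl* encodes argininosuccinate lyase, the urea cycle enzyme that releases arginine and fumarate, and lies on chromosome 5 from 130011258 to 130029247 on the minus strand. It had 0.952 and 0.891 RPKM in exon 4 KO and 1.39 and 1.40 RPKM in exon 4 rescue replicates. The exon 6 libraries had 1.20, 0.939 and 1.13 RPKM in KO and 1.63, 1.47 and 1.97 RPKM in rescue cells. No KO library reached a rescue library in either clone, nor over both clones. The KO mean of 1.02 ± 0.13 RPKM was 66.4% of the rescue mean of 1.53 ± 0.16 RPKM, and the log2 difference of -0.42, with pairs between -0.53 and -0.32, was the smallest of the 7 on this scale.

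*Rab8b* encodes a small GTPase of vesicle transport to the plasma membrane, a close relative of *Rab8a*, and lies on chromosome 9 from 66843664 to 66919687 on the minus strand. Its values were 0.955 and 1.11 RPKM in exon 4 KO and 1.56 and 1.66 RPKM in exon 4 rescue replicates. They were 0.869, 0.989 and 0.937 RPKM in exon 6 KO and 1.58, 1.70 and 1.46 RPKM in exon 6 rescue libraries. Rescue replicates of both clones lay close together, and the groups did not overlap: the mean was 0.975 ± 0.10 RPKM in KO, 61.1% of the 1.60 ± 0.05 RPKM in rescue cells. The log2 difference was -0.51, with pairs between -0.60 and -0.42. Of its 31-base stretches 5.35% are shared with the processed pseudogene *Gm20689*, which was at 1.64 ± 0.21 RPKM in KO cells and 2.54 ± 0.89 RPKM in rescue cells and lower in 3 of 4 pairs (adjusted *p* = 0.464, limma). How the counting divided such reads could not be read from the deposited values.

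*Slc1a3* encodes the glutamate and aspartate transporter GLAST, best known from astrocytes, and lies on chromosome 15 from 8634124 to 8710764 on the minus strand. It had 0.869 and 1.06 RPKM in exon 4 KO and 1.43 and 1.67 RPKM in exon 4 rescue replicates. The exon 6 clone had 0.955, 1.02 and 0.448 RPKM in KO and 1.62, 2.01 and 1.05 RPKM in rescue libraries. The technical replicate was the lowest library of its group in both conditions, and the lowest exon 6 rescue library was just above the highest KO library of that clone, at 1.05 against 1.02 RPKM. Averaged by replicate, the groups did not overlap, with 0.905 ± 0.14 RPKM in KO, 57.9% of the 1.56 ± 0.11 RPKM in rescue cells, a log2 difference of -0.56 and pairs between -0.72 and -0.48. The glial marker *Gfap* was at 0 in 4 of 10 libraries, with means of 0.00197 RPKM in KO cells and 0.00707 RPKM in rescue cells.

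**Figure D1:**
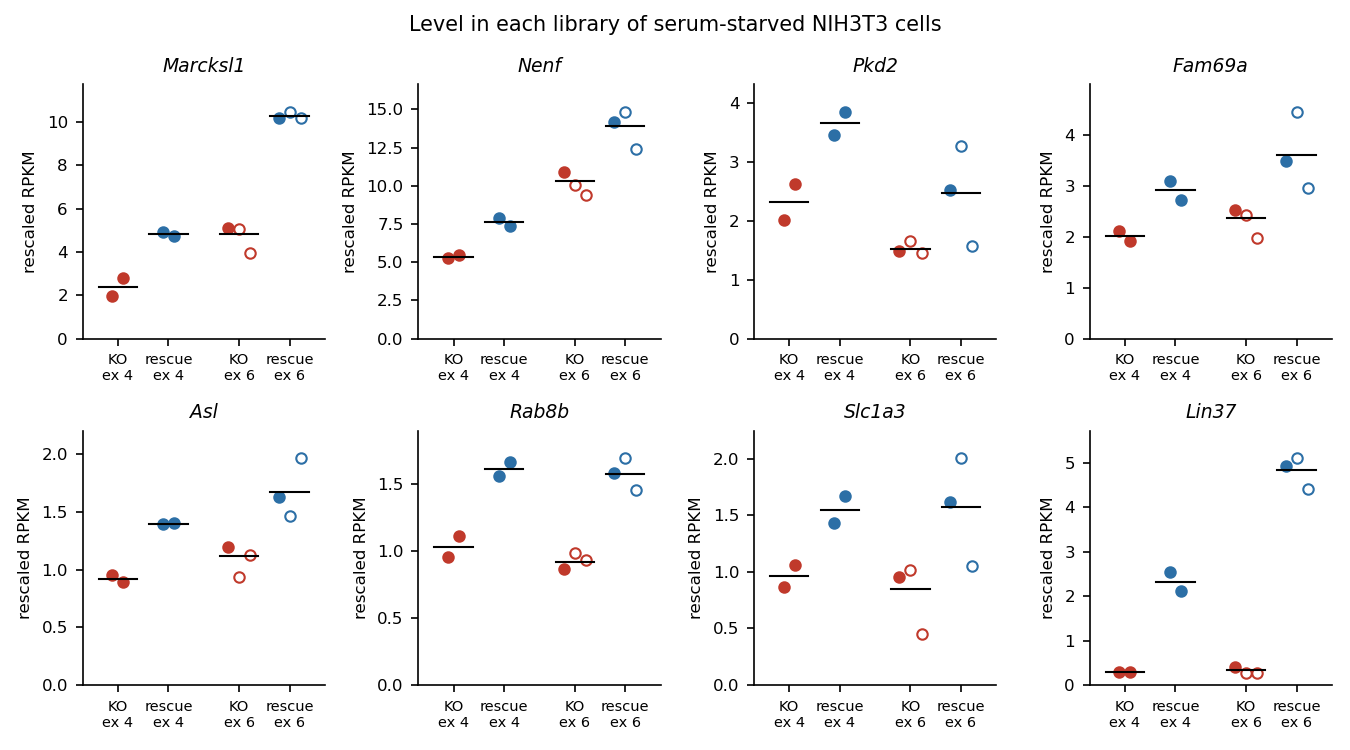
Rescaled level (RPKM, linear axis from 0) of the 7 genes and of *Lin37* in each of the 10 libraries, by clone (exon 4, exon 6) and condition (KO red, rescue blue); open points are the 2 technical libraries of exon 6 replicate 2 and the line is the mean of the 2 replicates. KO lies below rescue in each clone, *Marcksl1* and *Nenf* are higher in the exon 6 clone, and *Pkd2* is higher in the exon 4 clone and has 1 exon 6 rescue library, at 1.57 RPKM, among the KO values.

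The plot of levels by library shows that the 7 genes were not alike in how far the clones differed. Over both clones, all KO replicates were below all rescue replicates in 4 of the 7 genes, *Fam69a*, *Asl*, *Rab8b* and *Slc1a3*, and in 1.40% of all genes tested. Of all genes tested, 13.0% were lower in KO in all 4 pairs; for the 7 genes this was the condition of their choice, and nothing is read from their counts. In a culture, fewer cells that express a gene and less RNA per cell cannot be told apart. By level in rescue cells, *Nenf* stood at percentile 96.7 and *Marcksl1* at 94.4 of 11364 protein-coding genes tested, *Fam69a* at 82.3 and *Pkd2* at 80.7, and *Rab8b*, *Slc1a3* and *Asl* between 60.9 and 62.4. The last 3 did not differ in rescue level beyond their spread, nor did *Fam69a* and *Pkd2*.

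The direction of the differences depended on the rescaling. In every pair the KO library had the larger factor, between 1.56 and 2.77 times that of its rescue library. The libraries also differed in make-up. *Gm10800* was the highest entry of every rescue library, with 23.8 to 44.6% of its RPKM sum. The highest entry of KO libraries, *Gm10800* or *CT010467.1*, held 17.1 to 34.7%, less than in the rescue library of each pair. Entries at 0 numbered 10280 to 20959 in KO and 7920 to 22034 in rescue libraries. The part of these in the factors was not tested. In the RPKM as deposited, the median log2 difference of all genes tested was 0.64 in place of -0.03 after rescaling, and 0 of the 7 genes were lower in every pair. *Marcksl1* was then -0.06, and the other 6 were higher in KO, with 0.53 for *Nenf*, 0.41 for *Fam69a*, 0.35 for *Pkd2*, 0.31 for *Asl*, 0.23 for *Rab8b* and 0.17 for *Slc1a3*. *Nenf* in the exon 4 clone, for example, was deposited as 9.98 and 3.28 RPKM in KO and 5.69 and 2.78 RPKM in rescue replicates. For the exon 6 clone the deposited values were 26.2, 8.99 and 25.4 RPKM in KO and 14.9, 4.81 and 21.4 RPKM in rescue libraries, so that libraries of 1 group differed more than the groups did. Relative to the median of the 7550 genes at a mean of 1 RPKM or more, which was 0.83 as deposited, all 7 lay lower under that scale as well, from -0.90 for *Marcksl1* to -0.30 for *Nenf*. With quantile normalization the log2 differences were -0.96 for *Marcksl1* and between -0.61 and -0.45 for the other 6. The statement that the 7 genes were lower in KO cells is thus relative to most other genes, and total RNA per cell was not measured here.

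**Figure D2:**
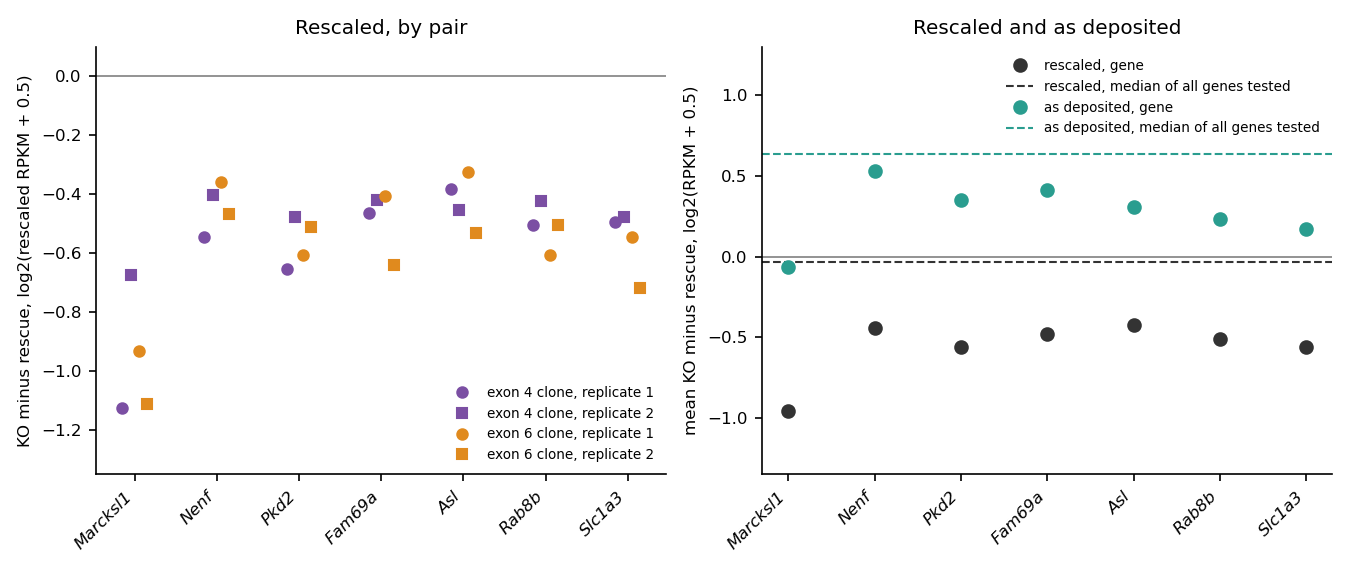
Log2 difference (KO minus rescue, RPKM + 0.5) of the 7 genes: left, in each of the 4 pairs after rescaling (colour, clone; shape, replicate number); right, the mean after rescaling (black) and in the RPKM as deposited (green), with dashed lines at the median of all 16866 genes tested, -0.03 and 0.64. All points on the left are below 0, while on the right the deposited values are below 0 for *Marcksl1* only but all are under their median line.

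Technical replicates gave the size of the measuring error in the exon 6 clone. Over 7550 genes the median absolute log2 difference between libraries 3 and 2 was 0.185 in KO and 0.234 in rescue cells. *Slc1a3* differed by -0.68 in KO and -0.69 in rescue cells, more than 94.5% and 90.8% of these genes. *Pkd2* differed by -0.87 in rescue cells, more than 94.5% of genes, and by -0.14 in KO cells. *Fam69a* differed by -0.25 in KO and -0.52 in rescue cells, and *Marcksl1* by -0.32 and -0.036. For *Pkd2*, *Slc1a3* and *Fam69a* a single pair of technical libraries thus differed by more than KO and rescue cells did on average. *Rab8b* (-0.05 in KO and -0.17 in rescue cells) and *Nenf* (-0.09 and -0.25) were closer together, and *Asl* was higher in library 3 in both conditions (0.18 and 0.33).

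The clones were compared because the choice of the 7 genes did not use the difference between them. It did use a limit in adjusted *p* from the same fit, in which both terms share the residual spread. That limit favours genes of small spread, so the *p*-values of the clone differences are not independent of the choice. The clones differ in the mutated exon and in everything else that separates 1 single-cell clone from another, and which of these a difference follows cannot be told apart. *Marcksl1* was 7.53 ± 3.16 RPKM (SD, n = 4) in the exon 6 and 3.59 ± 1.45 RPKM in the exon 4 clone, a log2 difference of 0.96 (SE 0.11, adjusted *p* = 0.0014, limma), with all exon 6 rescue libraries above all exon 4 rescue libraries and likewise for KO. *Nenf* was 12.1 ± 2.13 RPKM in the exon 6 and 6.48 ± 1.33 RPKM in the exon 4 clone, a log2 difference of 0.86 (SE 0.09, adjusted *p* = 0.000902). *Pkd2* went the other way, with 1.99 ± 0.55 RPKM in the exon 6 and 2.98 ± 0.82 RPKM in the exon 4 clone, a log2 difference of -0.48 (SE 0.10, adjusted *p* = 0.0160). The call for *Pkd2* was lost without the technical libraries (log2 -0.37, adjusted *p* = 0.0892) and without exon 6 KO replicate 1 or 2 or exon 6 rescue replicate 2, with adjusted *p* up to 0.064. In the RPKM as deposited it was 0.22 (adjusted *p* = 0.652). Of the 9 fibroblast markers, 3 (*Col1a1*, *Col1a2* and *Thy1*) were higher and 2 (*Dcn* and *Pdgfrb*) lower in the exon 6 clone, and their sum was 489 to 681 RPKM in exon 4 and 617 to 831 RPKM in exon 6 replicates; their part in the clone differences was not tested.

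*Fam69a* (log2 0.23, SE 0.09, adjusted *p* = 0.129) and *Asl* (0.19, SE 0.08, adjusted *p* = 0.157) were not called between the clones. *Rab8b* (-0.07, SE 0.08, adjusted *p* = 0.617) and *Slc1a3* (-0.05, SE 0.10, adjusted *p* = 0.761) were closest to 0. Thus 2 of the 7 genes were called higher in the exon 6 clone, beside 6.84% of all genes tested, and 1 was called lower, beside 6.71%. The choice favoured genes of small spread, so nothing is read from these counts. In all genes, 1154 were higher and 1132 lower in the exon 6 clone after rescaling, and 2484 and 261 in the RPKM as deposited, where the median clone difference of all genes tested was 0.51 in place of -0.05. On that scale the clone difference was 1.81 for *Marcksl1* (adjusted *p* = 0.0019), 1.74 for *Nenf* (adjusted *p* = 0.00689), 0.95 for *Fam69a* (adjusted *p* = 0.0755) and 0.90 for *Asl* (adjusted *p* = 0.0606). For *Marcksl1* and *Nenf* the difference between the clones after rescaling was as large as, or larger than, the one between KO and rescue cells. Among KO replicates alone the clone difference was 0.90 for *Marcksl1* and 0.89 for *Nenf*, and among rescue replicates alone 1.02 and 0.83. *Lin37* in rescue cells was itself higher in the exon 6 clone, at 4.84 against 2.33 RPKM. A link between this level and the 7 genes was not tested. For an interaction of clone and condition, 0 genes were called. The exon 4 pairs of *Marcksl1*, at -1.13 and -0.67, lay on either side of its mean in each clone. This mean KO minus rescue difference of *Marcksl1* was -1.02 for exon 6 and -0.90 for exon 4. It was -0.63 and -0.49 for *Slc1a3*, -0.55 and -0.46 for *Rab8b*, -0.52 and -0.44 for *Fam69a*, -0.43 and -0.42 for *Asl*, -0.56 and -0.57 for *Pkd2* and -0.41 and -0.47 for *Nenf*.

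**Figure D3:**
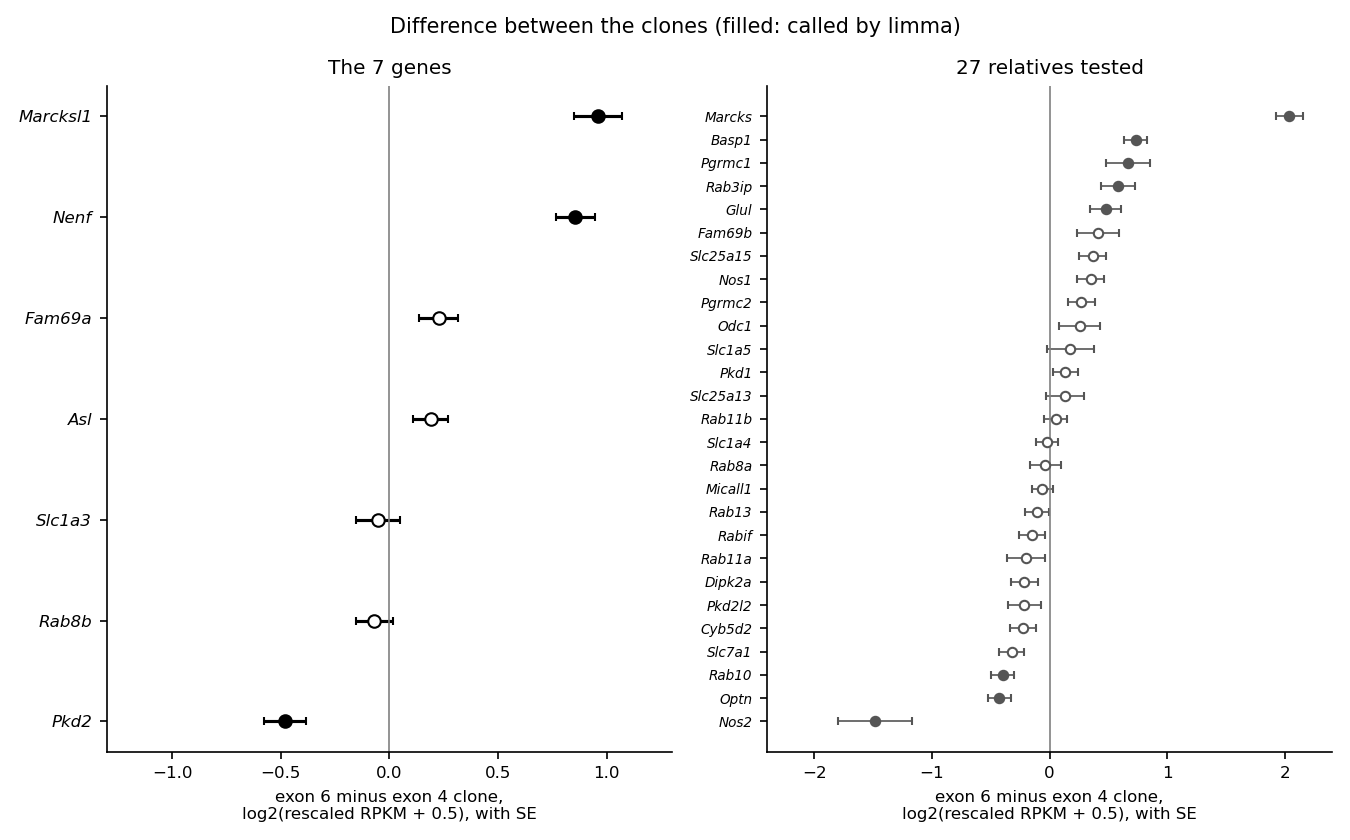
Log2 difference between the clones (exon 6 minus exon 4, rescaled RPKM + 0.5) with its standard error, for the 7 genes (left) and the 27 relatives tested (right); filled points have an adjusted *p* under 0.05 (limma, 4 replicates of each clone). *Marcksl1* at 0.96 and *Nenf* at 0.86 stand on the right, *Pkd2* at -0.48 on the left, and among relatives *Marcks* at 2.04 and *Nos2* at -1.48 lie farthest out.

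Genes from the same families and pathways, chosen by function with the earlier results known, gave 48 relatives, of which 27 passed the minimum mean of 0.1 RPKM and were tested and 21 did not. Between KO and rescue cells 0 of 27 were called in either direction (limma over all genes). Of all genes tested, 0.0830% were called lower and 1.61% higher, so 0 calls in 27 genes says little about the relatives. An unadjusted *p* under 0.05 (limma) was found for 3, *Marcks*, *Cyb5d2* and *Micall1*, all with a lower mean in KO. The median log2 difference of the 27 was -0.05, against -0.03 over all genes tested. In all 4 pairs 5 were lower in KO, beside 13.0% of all genes tested, and 3 were higher. No share over all genes was taken for the unadjusted *p* or for genes higher in all 4 pairs, and nothing is read from these counts. *Marcks*, the nearest relative of *Marcksl1*, the founding member of the family and a substrate of protein kinase C, had 4.73 ± 3.78 RPKM in KO cells and 6.44 ± 4.86 RPKM in rescue cells (log2 -0.44, SE 0.11, adjusted *p* = 0.159, and 0.0879 with the replicate block), with a lower value in KO in 4 of 4 pairs. *Basp1*, another myristoylated protein of the plasma membrane, had 11.6 ± 3.90 RPKM in KO cells and 12.5 ± 3.31 RPKM in rescue cells (log2 -0.13, adjusted *p* = 0.777). Both were higher in the exon 6 clone, as *Marcksl1* was: *Marcks* had 9.28 ± 1.78 RPKM there and 1.89 ± 0.49 RPKM in the exon 4 clone (log2 2.04, adjusted *p* = 7.10e-05), and *Basp1* 15.1 ± 0.46 and 8.95 ± 1.08 RPKM (log2 0.73, adjusted *p* = 0.00296).

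Among the heme-binding relatives of *Nenf*, *Pgrmc1* had 4.36 ± 1.35 RPKM in KO cells and 4.57 ± 1.64 RPKM in rescue cells (log2 -0.05, adjusted *p* = 0.962) and was higher in the exon 6 clone (log2 0.67, adjusted *p* = 0.0474). *Pgrmc2* had a log2 difference of -0.17 between KO and rescue cells (adjusted *p* = 0.736). *Cyb5d2*, which encodes neuferricin, was low, at 0.203 ± 0.047 RPKM in KO cells and 0.355 ± 0.140 RPKM in rescue cells (log2 -0.27, adjusted *p* = 0.511). For *Pkd2*, its channel partner *Pkd1* had 2.21 ± 0.13 RPKM in KO cells and 2.46 ± 0.40 RPKM in rescue cells (log2 -0.12, adjusted *p* = 0.794). Of the 8 genes listed with *Pkd2*, which were polycystin family genes and *Pkhd1*, 6 were under 0.1 RPKM. In the FAM69 and DIPK family 2 of 4 were tested, *Fam69b* with a log2 difference of 0.05 and *Dipk2a* with -0.17 (adjusted *p* = 0.962 and 0.746).

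The urea cycle around *Asl* was barely expressed in these fibroblasts: *Ass1*, whose product supplies the substrate of argininosuccinate lyase, was at 0.00098 RPKM in KO cells and 0.0088 RPKM in rescue cells, and *Otc*, *Cps1*, *Nags*, *Arg1* and *Arg2* were also under the minimum of 0.1 RPKM. Of the 13 genes of this list 6 were tested and 0 called between KO and rescue cells, and their median log2 difference was 0.18. None of the low genes just named was among those 6, so this median does not describe them. All of these low genes but *Nags* had a lower mean in KO cells, as *Asl* had, and their differences were not tested. *Arg2* was at 0.011 RPKM in KO cells and 0.123 RPKM in rescue cells, lower in 4 of 4 pairs, with a mean over both groups under the minimum. *Slc7a1*, the cationic amino acid transporter that imports arginine, had 2.32 ± 0.44 RPKM in KO cells and 1.98 ± 0.36 RPKM in rescue cells (log2 0.18, adjusted *p* = 0.693) and was higher in KO in 4 of 4 pairs. *Slc25a13*, the mitochondrial aspartate and glutamate carrier, had a log2 difference of 0.31 (adjusted *p* = 0.649).

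*Rab8a*, the closest relative of *Rab8b*, had 2.70 ± 0.49 RPKM in KO cells and 2.60 ± 0.35 RPKM in rescue cells (log2 0.04, SE 0.13, adjusted *p* = 0.957), without the drop seen in *Rab8b*. The difference between the 2 genes was not tested. *Rab10* was the most abundant of this list, at 8.50 ± 1.40 RPKM in KO cells and 9.19 ± 1.87 RPKM in rescue cells (log2 -0.10, adjusted *p* = 0.828), and was lower in the exon 6 clone (log2 -0.40, adjusted *p* = 0.0341). *Rab13*, *Rab11a* and *Rab11b*, small GTPases of related routes, had log2 differences of -0.04, -0.07 and 0.08. *Rab3ip*, which encodes the exchange factor Rabin8 that loads Rab8 with GTP, had -0.20 (adjusted *p* = 0.773) and was higher in the exon 6 clone (log2 0.58, adjusted *p* = 0.0346). *Micall1*, an effector of Rab8 on recycling endosomes, was at 1.82 ± 0.04 RPKM in KO cells and 2.29 ± 0.20 RPKM in rescue cells, with a lower value in KO in 4 of 4 pairs (log2 -0.26, adjusted *p* = 0.319). *Optn*, the Rab8-binding autophagy receptor optineurin, was lower in the exon 6 clone (log2 -0.42, adjusted *p* = 0.0226) and had -0.04 between KO and rescue cells.

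Of the transporter family of *Slc1a3*, the neutral amino acid transporters *Slc1a4*, with 3.15 ± 0.24 and 3.25 ± 0.23 RPKM in KO and rescue cells, and *Slc1a5*, with 1.73 ± 0.39 and 2.03 ± 0.60 RPKM, were tested (log2 -0.04 and -0.16, adjusted *p* = 0.941 and 0.871). The other glutamate transporters *Slc1a1*, *Slc1a2*, *Slc1a6* and *Slc1a7* were under 0.1 RPKM, so *Slc1a3* was the member of this glutamate group that passed the minimum. *Glul*, the gene of glutamine synthetase, had a log2 difference of -0.18 between KO and rescue cells (adjusted *p* = 0.762) and was higher in the exon 6 clone (log2 0.48, adjusted *p* = 0.0450). In the arginine list *Nos2*, the inducible nitric oxide synthase, was lower in the exon 6 clone (log2 -1.48, adjusted *p* = 0.0187). In all, 5 of the 27 relatives tested were higher and 3 lower in the exon 6 clone, beside the 6.84% and 6.71% of all genes tested.

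**Figure D4:**
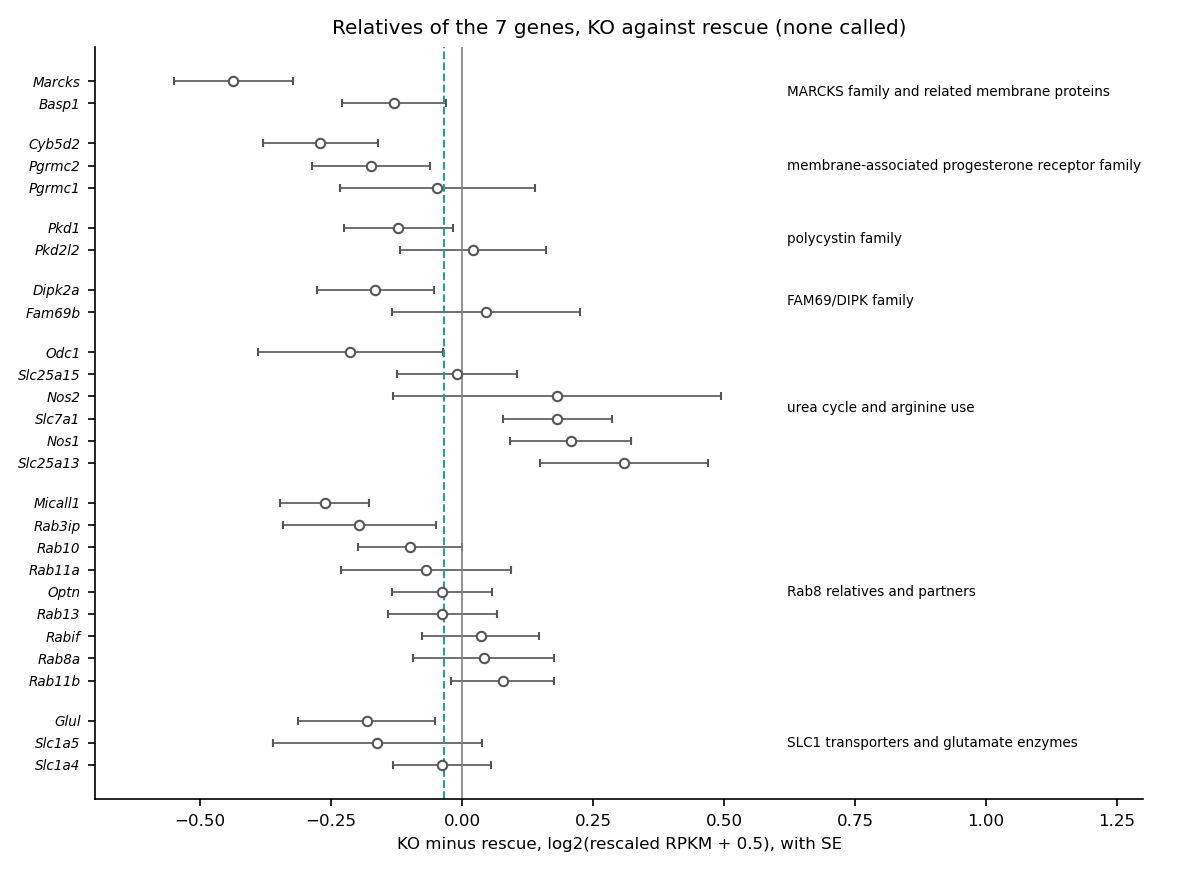
Log2 difference (KO minus rescue, rescaled RPKM + 0.5) of the 27 relatives tested, with its standard error, grouped by the family or pathway of the gene they relate to; the dashed line is the median of all genes tested. The points run from -0.44 for *Marcks* to 0.31 for *Slc25a13*, and 0 of 27 were called.

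The pattern over the 8 replicates was compared by Pearson correlation of log2 values with 6062 protein-coding genes of at least 1 RPKM; the points share clones, conditions and libraries, and *r* describes likeness only. *Fam69a* and *Asl* were each other's nearest genes (*r* = 0.985), and *Rab8b* and *Slc1a3* were as well (*r* = 0.951). After *Asl*, the nearest to *Fam69a* were *Sec11a*, a signal peptidase subunit gene (*r* = 0.958), and *Lin37* (*r* = 0.955). *Marcksl1* was nearest to *Nme4* (*r* = 0.973), *Tgfb3* (*r* = 0.956) and *Psmc2* (*r* = 0.954), and *Nenf* to *Twsg1* (*r* = 0.989), *Castor2* (*r* = 0.983) and *Myh10* (*r* = 0.980). *Pkd2* was nearest to *Phpt1* (*r* = 0.964), *Ext1* (*r* = 0.953) and *Vsig10* (*r* = 0.950). *Asl* had *Sec11a* (*r* = 0.966) and *Tpst1* (*r* = 0.959) next, *Rab8b* had *Ccdc93* (*r* = 0.944) and *Smg6* (*r* = 0.940), and *Slc1a3* had *Edf1* (*r* = 0.939) and *Ccdc93* (*r* = 0.935). Among the 7, *r* ran from -0.219 for *Nenf* and *Pkd2*, which differ in opposite directions between the clones, through 0.942 for *Marcksl1* and *Nenf*, to the 0.985 of *Fam69a* and *Asl*.

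The genes on both sides of the limit in adjusted *p* are given as a description. *Nenf* (log2 -0.44) and *Asl* (-0.42) were the last inside it. The first protein-coding genes outside it, which also meet the condition of a lower level in KO in 4 of 4 pairs, were *Tgfb3*, a transforming growth factor beta ligand, with 4.20 RPKM in KO cells and 6.82 RPKM in rescue cells (log2 -0.60), *Tcp11l2* with 0.618 and 1.19 RPKM (-0.61), and *Nme4*, a mitochondrial nucleoside diphosphate kinase gene, with 1.28 and 1.96 RPKM (-0.46). *Tgfb3* and *Nme4* are also 2 of the 3 genes whose pattern was nearest to that of *Marcksl1*. As *r* was taken over the same KO and rescue replicates, a shared drop in KO cells enters it, and the match adds no separate evidence.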

How the data were processed

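The authors clipped adapters with cutadapt, mapped reads to mm10 with segemehl and counted them with rnacounter on GENCODE vM5 genes; the deposited values are RPKM, 1 column per library, whose library total and strand setting are not given in the sources used here. Gene names and positions came from GENCODE M21 (44585 of 45232 entries found). R 4.3.3 with limma 3.58.1 and Python 3.11.15 were used. Libraries were divided by median-of-ratios factors over 8523 genes of at least 1 RPKM with a value over 0 in all libraries, and technical replicates were averaged. Genes above a minimum mean of 0.1 RPKM were fitted on log2(RPKM + 0.5), which understates changes of low genes, with limma (trend) and terms for condition and clone; an adjusted *p* (Benjamini-Hochberg) under 0.05 over all genes was called. The procedure was tested on simulated data.

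KO and rescue samples share replicate numbers in the labels, and their deviations from the group means correlated between same-numbered replicates, with 0.477 (exon 4) and 0.360 (exon 6) over 7550 genes, so the numbers were taken to pair them. The 7 genes, the lists of relatives and markers and the rule for named genes (the 7 genes, relatives that were called or had 1 RPKM or more, and for each of the 7 the 3 genes of highest correlation) were chosen with earlier results of these data known; a few relatives outside the rule (*Cyb5d2*, *Fam69b*, *Dipk2a*, *Slc25a13* and those named as low), the genes sharing sequence and those next to the limit were named after their values were seen. Promoter windows are from RefSeq; GSAT_MM entries and reads were not analysed here, and 1 relative is not reported here.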

Additional observations from a re-analysis of the deposited data

How the results depend on the processing

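After rescaling, 0 relatives were called under the alternatives run. With the RPKM as deposited, 0 of the 7 genes were lower in KO in every pair, 1 relative was higher, and the differences reversed for *Nenf* (0.53), *Pkd2* (0.35), *Fam69a* (0.41), *Asl* (0.31), *Rab8b* (0.23) and *Slc1a3* (0.17). With 0.1 or 1 RPKM added before the log2 in place of 0.5, all 7 stayed lower in every pair. *Slc1a3* was then -0.73 or -0.43, *Rab8b* -0.66 or -0.40, *Pkd2* -0.66 or -0.48 and *Asl* -0.55 or -0.33. With 0.1 the difference of *Asl* was larger than that of *Nenf* (-0.47), so the order of the 7 by log2 difference depends on this setting. Genes higher in KO numbered 271, and 155 without a minimum level, 93 with a minimum of 1 RPKM, 875 as deposited and 174 to 265 leaving out each replicate in turn (174 without exon 6 KO replicate 2, 180 without replicate 1). Genes lower in KO numbered 14, and 27 with the replicate block, which changed no call of a relative, and 4 to 16 leaving out each replicate (4 and 5 without exon 6 KO replicates 2 and 1, 7 without either exon 6 rescue replicate, 8 without exon 4 KO replicate 1). The clone counts of 1154 higher and 1132 lower became 506 and 496 without a minimum, 2484 and 261 as deposited, and 14 and 13 in rescue and 60 and 48 in KO replicates alone. They were 528 to 1244 and 483 to 1847 leaving out each replicate. Both counts fell when any replicate was left out except exon 4 KO replicate 1, which gave the 1244 and the 1847. The higher counts were 528 and 534 without exon 6 KO replicates 1 and 2, and 707 and 633 without exon 6 rescue replicates 1 and 2. They were 837 without exon 4 KO replicate 2, and 888 and 879 without exon 4 rescue replicates 1 and 2. The clone is constant within a block, so that contrast had no blocked fit.

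The clone difference of *Marcksl1* was 0.90 (KO) and 1.02 (rescue replicates alone) and that of *Nenf* 0.89 and 0.83, no longer called with 2 replicates against 2; as deposited they were 1.81 and 1.74, both called, and *Fam69a* and *Asl* were 0.95 and 0.90, not called. *Pkd2* was -0.48 in both, -0.37 without the technical libraries, 0.22 as deposited and -0.54 to -0.42 leaving out each replicate. *Slc1a3* was 0.10 without the technical libraries, 0.020 in rescue replicates alone, 0.49 as deposited and -0.10 to 0.0095 leaving out each replicate, and *Rab8b* was 0.58 as deposited; neither was called in any of these. The cause was not tested, except that the fits of KO or rescue replicates alone have fewer samples. Depth is unknown, and only 1 clone per mutated exon was sequenced.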
